A study of Mus musculus with 6 samples.

Results

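The transcripts described here were those of 9 genes that set or maintain the identity of B lineage cells: Pax5, Ebf1, Pou2af1, Pou2f2, Bcl11a, Mef2c, Aff3, Hhex and Cbfa2t3. They were taken by gene symbol from 23420 symbols, and all 9 were found in every library. Transcript levels had been measured by RNA-seq in B cells purified with beads from the spleens of MRL/lpr mice, a strain with the Fas lpr mutation that develops a lupus-like disease. Cells were cultured for 4 h with the imidazoquinoline CL097, an activator of TLR7, at 5 µg/ml, or were left unstimulated, with 3 libraries per condition numbered 1 to 3. All libraries of both conditions were TLR9-/- with wild-type Tlr7, and came from mice aged 5 to 7 weeks that were male per the study's methods. Unstimulated cells thus carried the Tlr9 deficiency too, and Tlr9-sufficient cells were not analysed here. Reads assigned to Tlr9 were still present in every library, at 112 to 155 CPM, and their origin was not tested. Cells were purified by removing those with CD43, CD4, CD8, CD11b, CD11c or Gr-1, so activated B cells with CD43 or CD11c on their surface could have been removed too. The comparison asks how transcripts of the B lineage program differed after TLR7 was engaged.

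A B cell keeps its identity through a small network of transcription factors. EBF1 and PAX5 switch on B cell genes such as those of the antigen receptor complex, and PAX5 also holds down genes of other lineages and of plasma cells. OCT2, encoded by Pou2f2, binds the octamer motif of immunoglobulin promoters together with its B cell coactivator OBF-1, encoded by Pou2af1. When B cells become plasma cells, much of this network is shut down, while Pou2af1 and Pou2f2 remain in use.

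The deposited values were log2 CPM (read counts scaled to library size), quantile normalized, so a change is a shift against the rest of the library's genes. The number of genes at 1 CPM or more was 10906 to 10997, and the read depth is unknown. B cell markers were high in every library: all 8 that were found were tested, and their summed level was 13840 to 15490 CPM in unstimulated and 9188 to 11090 CPM in CL097 libraries. Erythroid marker levels stood apart in number 1, with sums of 206 and 214 CPM against 4169 to 7586 CPM in the other 4 libraries. Both libraries of a number held identical values at 2655 to 3108 genes, against 347 to 404 in pairs of different numbers. The source of these identical values was not tested.

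Of the 9 identity factors, 6 fell, 1 rose and 2 did not pass the thresholds after CL097. Hhex, Mef2c, Pou2af1, Bcl11a, Cbfa2t3 and Ebf1 fell, Pou2f2 rose, and Pax5 and Aff3 were not called. Calls needed both a limma p, adjusted by the Benjamini-Hochberg method, below 0.05 and a log2 fold change (log2FC, CL097 minus unstimulated) of more than 0.5 in either direction. Across the 11844 genes tested, 47.6% were called, 23.6% lower and 24% higher, so calls were common in this comparison. With the replicate number as a block, the same 6 genes were called lower and the same 1 higher, beside 51.7% of all tested genes called (25.8% lower and 25.9% higher). The median log2FC was -0.68 over the 9 genes and 0.0018 over all tested genes. CL097 values lay wholly below the unstimulated ones for 7 of the 9 genes, against 32.4% of all tested genes, and wholly above for 1, against 33.4% (65.8% for both directions together). All 9 kept 1 direction in every number, lower in 7 and higher in 2. A gene whose groups do not overlap keeps 1 direction by construction, so at least 65.8% of all tested genes did so too. In RNA from whole populations, fewer cells of a type and less RNA per cell cannot be told apart.

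**Figure D1:**
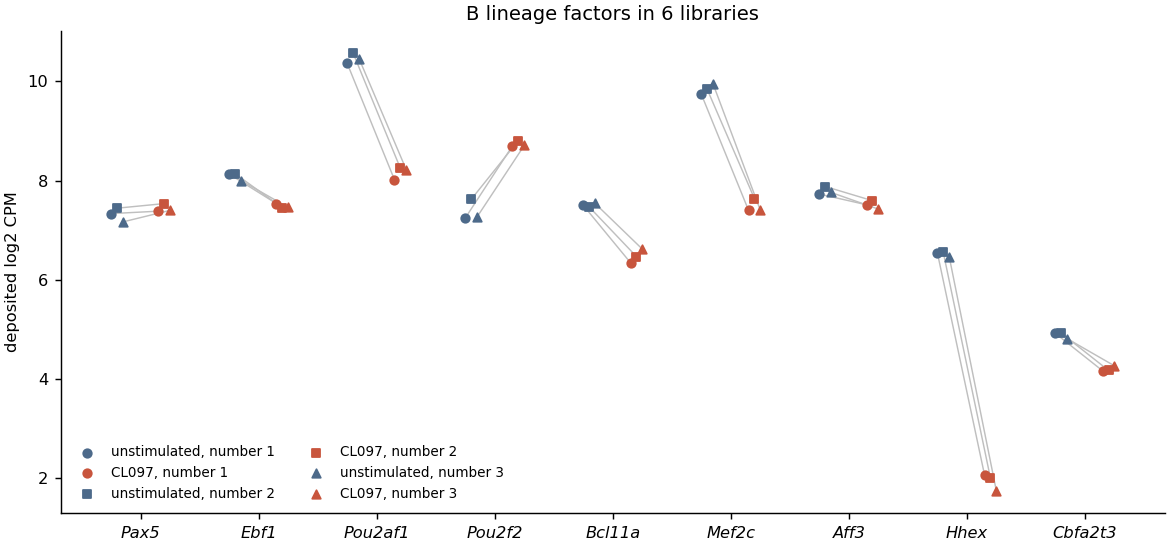
Deposited log2 CPM of each of the 9 genes in the 6 libraries (blue unstimulated, red CL097, shapes for numbers 1 to 3), with grey lines joining the libraries of a number. The Hhex lines drop the furthest, from a mean of 92.0 CPM to 3.84 CPM, the Pou2f2 lines go up in all 3 numbers, and the values of Pax5 overlap between conditions.

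The sequence upstream of a RefSeq start site is shown for the gene with the largest fall, Hhex, and for the octamer pair, which moved in opposite directions. The sequences are from RefSeq (GRCm38.p6, the mm10 assembly), written 5′ to 3′ on the strand of the gene, and are the longest stretches of the 250 bases before a start site that hold no annotated exon. Capitals mark the GC box GGGCGG in Hhex and Pou2f2 and the CRE half-site TGACG in Pou2af1. The Hhex stretch is chr19:37434657-37434809 (plus strand), the Pou2f2 stretch is chr7:25132513-25132710 (minus strand) and the Pou2af1 stretch is chr9:51213440-51213689 (plus strand). The Pou2f2 start site used here lies inside the annotated gene (chr7:25087344-25179726), so this stretch is not upstream of the whole gene.
Hhex: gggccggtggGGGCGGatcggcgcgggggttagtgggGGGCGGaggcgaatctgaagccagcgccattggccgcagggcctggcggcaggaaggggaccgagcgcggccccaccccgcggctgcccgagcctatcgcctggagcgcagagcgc
Pou2f2: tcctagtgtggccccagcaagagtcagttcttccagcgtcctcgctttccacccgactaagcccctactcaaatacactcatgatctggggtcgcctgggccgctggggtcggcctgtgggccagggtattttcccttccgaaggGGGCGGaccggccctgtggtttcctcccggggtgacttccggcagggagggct
Pou2af1: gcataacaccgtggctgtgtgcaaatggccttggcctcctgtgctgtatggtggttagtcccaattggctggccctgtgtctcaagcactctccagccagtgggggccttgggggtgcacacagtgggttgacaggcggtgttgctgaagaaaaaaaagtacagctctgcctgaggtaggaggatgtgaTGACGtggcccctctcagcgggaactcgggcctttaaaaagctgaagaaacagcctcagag

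Motifs were searched on both strands of the 250 bases before each start site, in 13 windows of the 9 genes and 32851 windows of 27025 symbols. The GC box GGGCGG was in 8 of the 13 windows and in 7 of the 9 genes, against 32.7% of all windows, and the exceptions were Ebf1 and Pou2af1. It was found in windows of genes that fell, such as Hhex, and of Pou2f2, which rose. The octamer ATGCAAAT (1.60% of all windows), a kappaB consensus (0.14%) and a MEF2 consensus (3.20%) matched none of the 13 windows. The EBF core CCCNNGGG (11.8%) matched 1 window, that of Cbfa2t3. The CRE half-site TGACG, which the full CRE TGACGTCA contains, matched windows of Pou2af1 and Cbfa2t3 (17.8% of all windows), and the full CRE matched none (1.55%). GC content of the window was 76.0% for Hhex, 64.8% for Pou2f2 and 56.0% for Pou2af1, beside a median of 52.4%. A match is a description of letters in the window only.

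Pax5 (chr4:44524757-44710487, minus strand) encodes the paired box factor that commits cells to the B lineage. Its level was 162, 174 and 144 CPM in unstimulated libraries 1, 2 and 3, and 167, 186 and 169 CPM in CL097 libraries 1, 2 and 3. CL097 values were slightly higher within each number, but the groups overlapped. The log2FC was 0.12 (SE 0.09, adjusted p = 0.265), with a 95% confidence interval of -0.08 to 0.33, which spans 0.944-fold to 1.26-fold. An annotated transcript on the opposite strand, 5730488B01Rik, shares up to 636 exonic bases with Pax5. Its level was 5.12 to 5.57 CPM in unstimulated and 6.29 to 10.2 CPM in CL097 libraries, and whether the counting used strand is not given in the sources used here.

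Ebf1 (chr11:44617317-45008091, plus strand) encodes early B cell factor, which acts with PAX5 and upstream of it. Unstimulated libraries held 281, 282 and 257 CPM of Ebf1, and CL097 libraries held 186, 175 and 176 CPM. Each CL097 value lay below each unstimulated one. Ebf1 fell by 0.61 on the log2 scale (SE 0.07, adjusted p = 0.000146), a level 1.52-fold lower. The log2 ratio of Pax5 to Ebf1 went from -0.78 to -0.04, a shift of 0.73 ± 0.08 (SD, n = 3 numbers). The shift was 0.64, 0.78 and 0.78 in numbers 1, 2 and 3, so its sign was shared by all 3.

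The octamer pair moved in opposite directions, Pou2f2 up and Pou2af1 down. Pou2f2 (chr7:25087344-25179726, minus strand), which encodes OCT2, was read at 152, 197 and 154 CPM in unstimulated libraries and at 416, 449 and 419 CPM in CL097 libraries. All CL097 values exceeded all unstimulated values, and library 2 was the highest in both conditions. The log2FC was 1.36 (SE 0.11, adjusted p = 1.85e-05), a level 2.57-fold higher. A microRNA gene, Mir6537, overlaps 35 exonic bases of Pou2f2 on the same strand.

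Pou2af1 (chr9:51213708-51240080, plus strand), which encodes OBF-1, the coactivator that OCT1 and OCT2 recruit, was at 1316, 1520 and 1409 CPM in unstimulated libraries. It was at 259.6, 304 and 298 CPM with CL097, and no CL097 library came near the unstimulated range. Pou2af1 fell by 2.30 on the log2 scale (SE 0.09, adjusted p = 1.05e-06), 4.93-fold lower. Per library, the log2 ratio of Pou2f2 to Pou2af1 was -3.12, -2.95 and -3.19 without stimulus and 0.68, 0.56 and 0.49 with CL097. It therefore changed sign in all 3 numbers, by 3.66 ± 0.15 (SD, n = 3). This ratio is of CPM and not per length, so its sign does not say which transcript was more abundant.

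Mef2c, Bcl11a and Aff3 encode factors of mature and developing B cells. Mef2c (chr13:83504034-83667080, plus strand) encodes a MADS box factor that supports survival and proliferation of B cells after antigen receptor engagement. It was at 856, 916 and 987 CPM in unstimulated libraries and 169, 199 and 169 CPM in CL097 libraries. The groups lay far apart, and Mef2c fell by 2.36 on the log2 scale (SE 0.09, adjusted p = 1.05e-06), 5.14-fold lower. Monocytes also express Mef2c. The summed monocyte and macrophage markers were lowest in number 1 (208 and 142 CPM) and highest in number 3 (727 and 447.5 CPM), while Mef2c differed by -2.34, -2.20 and -2.54 in numbers 1, 2 and 3.

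Bcl11a (chr11:24078056-24174123, plus strand) encodes a zinc finger repressor needed for early lymphoid development. Its values were 181, 177 and 186 CPM without stimulus and 81.3, 88.7 and 98.4 CPM with CL097. The groups did not overlap, and the unstimulated values were close together (182 ± 4.41 CPM, SD, n = 3). Bcl11a fell by 1.02 on the log2 scale (SE 0.09, adjusted p = 2.52e-05), 2.03-fold lower. An antisense gene, 4930538E20Rik, overlaps 190 of its exonic bases.

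Aff3 (chr1:38177326-38664955, minus strand) encodes a lymphoid member of the AF4 family, whose proteins are scaffolds of transcription elongation complexes. It was at 212, 236 and 217 CPM in unstimulated and 183, 193 and 172 CPM in CL097 libraries. CL097 values were lower without overlap, but the difference was small. The log2FC was -0.28 (SE 0.08, adjusted p = 0.0139), with a 95% confidence interval of -0.46 to -0.10, and it did not reach the fold threshold.

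The remaining pair encodes a repressor and a corepressor. Hhex (chr19:37434810-37440731, plus strand) encodes a homeobox factor that acts mainly as a repressor. In unstimulated libraries it was read at 93.4, 94.0 and 88.7 CPM, and in CL097 libraries at 4.18, 4.01 and 3.35 CPM. Every CL097 library was far below every unstimulated one. Hhex fell by 4.59 on the log2 scale (SE 0.13, adjusted p = 8.35e-07), 24.0-fold lower. This was number 5 among the falls of the 11844 tested genes ordered by log2FC, and its level moved from percentile 77.4 of the tested genes to percentile 20.1.

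Cbfa2t3 (chr8:122625141-122699109, minus strand) encodes ETO2, a corepressor that recruits histone deacetylases. It was the gene of the 9 with the lowest CPM without stimulus, at 30.3, 30.4 and 28.1 CPM, and was at 18.0, 18.1 and 19.3 CPM with CL097. The groups did not overlap. Cbfa2t3 fell by 0.68 on the log2 scale (SE 0.10, adjusted p = 0.000688), 1.61-fold lower. Erythroid precursors also express Cbfa2t3 and Bcl11a, and erythroid markers differed most between number 1 and the rest. Cbfa2t3 differed by -0.75 in number 1, the number with few erythroid transcripts, and by -0.75 and -0.55 in numbers 2 and 3. Bcl11a differed by -1.156, -0.999 and -0.919. The antisense gene Gm10612 overlaps 295 exonic bases of Cbfa2t3.

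**Figure D2:**
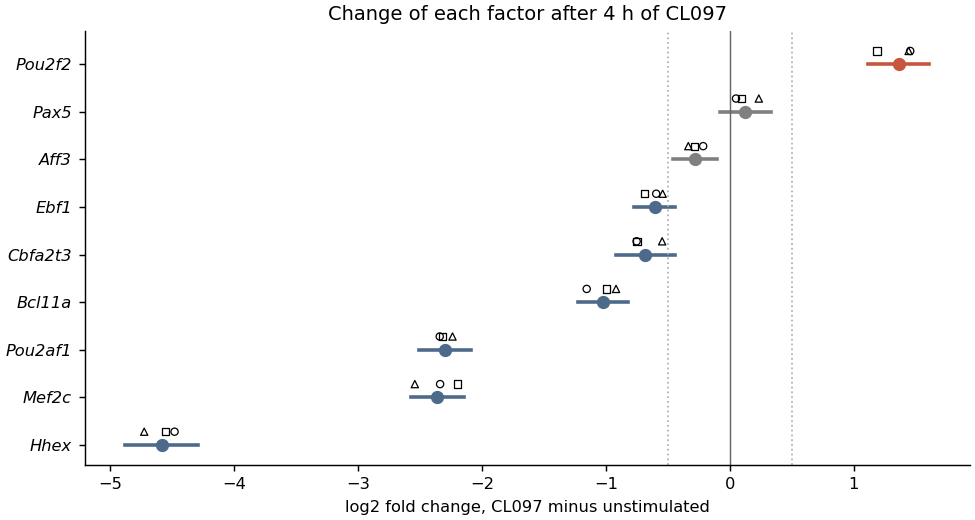
Log2FC (CL097 minus unstimulated) of the 9 genes as filled points with 95% confidence intervals from limma, with open symbols for the differences within numbers 1 (circle), 2 (square) and 3 (triangle). Blue and red mark genes called lower and higher, grey those not called, and dotted lines the fold threshold of 0.5. The values run from -4.59 for Hhex to 1.36 for Pou2f2, and the Pax5 interval includes 0.

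Levels were compared between the 9 genes per kilobase of exon, counted over the union of annotated exons. In unstimulated cells, Pou2af1 was highest at 555 ± 40.1 CPM per kb (SD, n = 3), followed by Mef2c at 58.5 ± 4.17, Aff3 at 33.3 ± 1.87 and Ebf1 at 28.0 ± 1.47 CPM per kb. Pou2f2 (20.3 ± 3.08 CPM per kb), Hhex (18.2 ± 0.574) and Pax5 (18.1 ± 1.72) overlapped and had no order beyond their spread. Bcl11a at 13.8 ± 0.335 and Cbfa2t3 at 3.54 ± 0.152 CPM per kb were lowest. After CL097, Pou2af1 was still first at 113 ± 9.55 CPM per kb, and Pou2f2 was next at 51.9 ± 2.16. Aff3 followed at 27.5 ± 1.62 CPM per kb, and Pax5 (19.7 ± 1.16) and Ebf1 (18.4 ± 0.606) overlapped. Mef2c was at 11.4 ± 1.10, Bcl11a at 6.79 ± 0.65, Cbfa2t3 at 2.20 ± 0.0857 and Hhex last at 0.76 ± 0.0865 CPM per kb. With the length of the longest coding transcript instead, Pou2af1 was again first in both conditions and Hhex last after CL097, but the middle order changed, with Hhex at 51.1 CPM per kb as number 3 of the unstimulated order.

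The 9 genes varied less between libraries of a condition than the median tested gene. Their pooled SD on the log2 scale was 0.06 (Cbfa2t3) to 0.15 (Pou2f2), below the median of 0.18 over all tested genes in 9 of 9. Their unstimulated levels were at percentiles 52.1 (Cbfa2t3) to 99.7 (Pou2af1) of the tested genes, and genes of matched level were not compared. The difference between CL097 and unstimulated spread by 0.10 to 0.34 between the 3 numbers, whereas the log2FC values of the 9 genes spanned 5.95. The summed level of the 9 genes was 3284, 3627 and 3470.3 CPM in unstimulated libraries and 1485, 1618 and 1525 CPM in CL097 libraries. Pou2af1 and Mef2c made up most of this sum without stimulus, while Pou2f2 had the highest CPM of the 9 with CL097.

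Close relatives of the 9 genes were read next, since paralogues can share binding sites or partners. Of 16 listed paralogues, 7 were expressed enough to be tested. None of these rose, 4 fell (against 23.6% of all tested genes) and 3 were not called, with a median log2FC of -0.53. Without CL097 library 1, or with number 1 left out of both conditions, 3 were called lower. The 9 untested paralogues, among them Pax2, Pax8, Ebf2, Ebf3, Ebf4 and Bcl11b, reached at most 0.453 CPM, so none of the listed relatives of Pax5, Ebf1 or Bcl11a was above this level.

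Pou2f1, which encodes the widely expressed OCT1, was at 96.7 ± 3.13 CPM without stimulus and 67.2 ± 6.57 CPM with CL097 (SD, n = 3), and fell by 0.53 on the log2 scale (SE 0.09, adjusted p = 0.00145). Pou2f1 differed by -0.742, -0.471 and -0.375 in numbers 1, 2 and 3, and was the paralogue whose call was lost without CL097 library 1. The log2 ratio of Pou2f2 to Pou2f1 was 0.78 without stimulus and 2.68 with CL097, a difference of 1.89 ± 0.28 (SD, n = 3). In the MEF2 family, Mef2d fell by 0.76 (SE 0.11, adjusted p = 0.000548), from 243 to 143 CPM, and Mef2a differed by -0.35 (SE 0.08, adjusted p = 0.00558), short of the fold threshold. Mef2b was at 20.1, 5.33 and 6.40 CPM in unstimulated and 11.5, 3.34 and 6.51 CPM in CL097 libraries, so library 1 was high in both conditions, and it was not called (log2FC -0.49, SE 0.58, adjusted p = 0.497). The log2 ratio of Mef2c to Mef2d was 1.93 without stimulus and 0.32 with CL097, and that of Mef2c to Mef2a was 3.38 and 1.37.

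In the AF4 family, both tested relatives fell, while Aff3 was not called. Aff1 went from 288 ± 9.95 to 110 ± 18.3 CPM (log2FC -1.40, SE 0.12, adjusted p = 3.09e-05), and Aff4 from 353 ± 19.7 to 165 ± 3.08 CPM (log2FC -1.10, SE 0.07, adjusted p = 5.96e-06). The log2 ratio of Aff3 to Aff4 was higher with CL097 in all 3 numbers, by 0.76, 0.87 and 0.83, and that of Aff3 to Aff1 by 1.498, 1.033 and 0.842. Cbfa2t2, a relative of Cbfa2t3 that encodes a corepressor of the same family, was at 36.1 ± 2.68 and 36.4 ± 1.41 CPM (log2FC 0.01, SE 0.10, adjusted p = 0.909). The log2 ratio of Cbfa2t3 to Cbfa2t2 moved by -0.95, -0.69 and -0.45.

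A total of 10 such log2 ratios were compared between groups with a two-sided exact permutation test. For 9 of them the groups did not overlap and p was 0.1, the smallest that 3 libraries against 3 allow, so no ratio could reach 0.05 in this design. Groups of single genes did not overlap for 65.8% of all tested genes, and ratios of other gene pairs were not compared. No conclusion is therefore drawn from this test. The exception was Pax5 to Prdm1 (exact permutation p = 0.9), where Prdm1 encodes BLIMP-1, the plasma cell factor that PAX5 holds down and that in turn represses Pax5. This log2 ratio was 3.24 without stimulus and 3.26 with CL097, and shifted by 0.02, -0.18 and 0.24 in the 3 numbers. The log2 ratio of Hhex to Pax5 moved from -0.79 to -5.51.

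**Figure D3:**
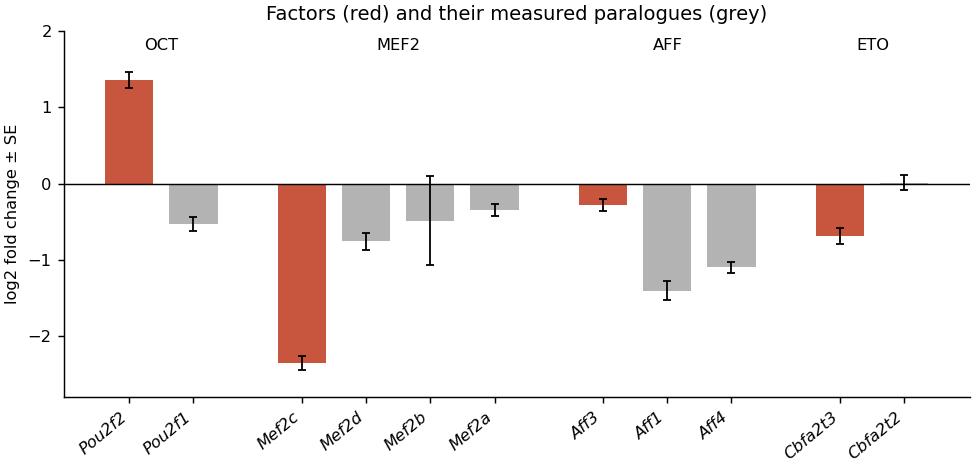
Log2FC (CL097 minus unstimulated) of 4 identity factors (red bars) and of their tested paralogues (grey bars), with error bars of 1 SE from limma. Pou2f2 stands at 1.36 and Pou2f1 at -0.53, whereas Mef2c and its relatives all lie below 0 and Aff3 lies closer to 0 than Aff1 and Aff4.

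Known targets of PAX5 and EBF1 were counted next. Of 22 genes that these factors activate, 17 fell, none rose and 5 were not called (median log2FC -1.45, against 23.6% called lower over all tested genes). Id3, an inhibitor of E proteins, fell by 2.97 on the log2 scale (54.9 to 7.00 CPM). The complement regulator gene Cd55 fell by 2.42 (263 to 49.3 CPM), the Ikaros family gene Ikzf3 by 2.36 (646 to 126 CPM), and the inhibitory coreceptor gene Cd22 by 2.36 (411 to 80.1 CPM). Rasgrp3, Blnk, Cd72 and Fcer2a were among those not called, with log2FC values of -0.39, 0.11, 0.18 and 0.34.

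Genes that PAX5 represses did not move in 1 direction. Of 13 tested, 2 rose, against 24% of all tested genes, and 4 fell, against 23.6%. The other 7 were not called, and the median log2FC of the list was -0.04. The chemokine gene Ccl3 rose by 4.64 on the log2 scale, from 19.3 to 478 CPM, and the myeloid receptor gene Cd33 by 1.41, from 1.00 to 2.80 CPM. Ly6a fell by 1.10, Emb by 0.98, Igj, which encodes the joining chain of secreted antibodies, by 0.95 and the plasma cell factor gene Xbp1 by 0.76. Prdm1 was at 17.3 ± 4.58 and 18.5 ± 4.48 CPM (log2FC 0.10, SE 0.24, adjusted p = 0.751). With the replicate number as a block, 6 fell, the added genes being Csf1r and Ccr2, which are also expressed by monocytes. The median turned to 0.16 without unstimulated library 3 and to 0.31 without CL097 library 1.

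Among 7 genes tied to OCT2 or OBF-1, 1 rose, 4 fell and 2 were not called (median log2FC -0.59). Over all tested genes, 24% were called higher and 23.6% lower. The cytokine gene Il6 rose by 5.85 on the log2 scale (SE 0.42), from 1.44 to 76.1 CPM. The kinase gene Btk fell by 1.79 (312 to 90.6 CPM), the ETS factor gene Spib by 1.17 (831 to 369 CPM), Cd36, a direct OCT2 target, by 0.80 (133 to 75.4 CPM) and Ms4a1, which encodes CD20, by 0.59 (1261 to 834 CPM). Il5ra and Ell2 had log2FC values of -0.32 and -0.14.

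Cofactors that the 9 proteins recruit or bind moved in both directions, as did all tested genes. Of 30 tested, 5 rose, against 24% of all tested genes, and 10 fell, against 23.6%. The other 15 were not called, and the median log2FC of the list was -0.07. The number called higher was 4 to 6 with 1 library left out and 4 under cyclic loess. The falls included histone deacetylases that MEF2 proteins bind: Hdac5 fell by 2.08 on the log2 scale (80.4 to 19.5 CPM) and Hdac9 by 1.13 (49.5 to 22.6 CPM). Deacetylase genes of the list did not all fall, since Hdac4 rose. Ell3, an elongation factor gene, fell by 1.78 and Mllt3, whose product joins AF4 family complexes, by 1.28. The 4 largest rises were in Mllt1, a paralogue of Mllt3, by 1.25 (55.6 to 133 CPM), Lmo2 by 1.04 (46.0 to 95.2 CPM), Hdac4 by 0.83 and the Groucho corepressor gene Tle3 by 0.72. The general corepressor gene Ncor1 was not called, with a log2FC of -0.15.

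Other transcription factor genes of B cells mostly fell as well. Of 24 tested, 14 fell, against 23.6% of all tested genes, and 5 rose, against 24%. The other 5 were not called, and the median log2FC of the list was -0.76. Id3 fell by 2.97 on the log2 scale, Ets1 by 2.71 (1873 to 287 CPM), Ikzf3 by 2.36 and Runx1 by 1.85 (94.7 to 26.6 CPM). Irf4, which B cells raise on activation, rose by 1.76 (608 to 2061 CPM), Runx3 by 1.37 (106 to 273 CPM), Etv6 by 0.70 and Bcl6 by 0.70. Runx1 and Runx3, which encode factors that bind the same motif, thus moved in opposite directions, as did Pou2f1 and Pou2f2. The lists overlap, with Id3, Ikzf3 and Spib among the genes in more than 1.

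**Figure D4:**
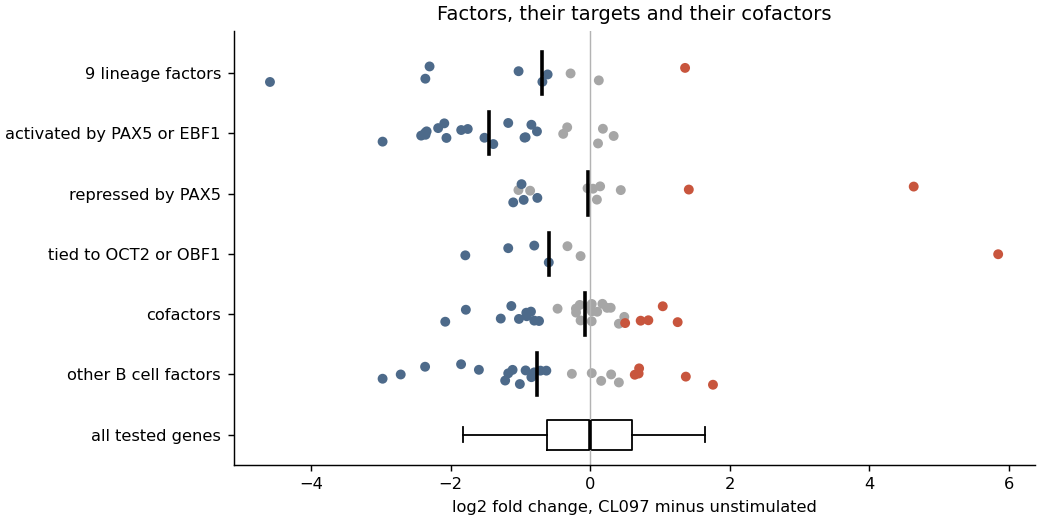
Log2FC (CL097 minus unstimulated) of every tested gene in 6 lists, as points coloured blue where called lower, red where called higher and grey where not called, with a black line at the median of the list. The box shows the quartiles and median of all tested genes, with whiskers at percentiles 5 and 95 (-1.82 and 1.65). The genes activated by PAX5 or EBF1 have a median of -1.45, and those repressed by PAX5 a median of -0.04.

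Markers of other cells were summed to show what else the libraries held. The B cell markers that led the 5 called lower of 8 were Cd22, Cd79b (1801 to 429 CPM), Cd79a (1880 to 452 CPM) and Cr2 (132 to 50.4 CPM), and none was called higher. Over all tested genes, 23.6% were called lower and 24% higher. T cell markers summed to 187 to 203 CPM in unstimulated and 30.8 to 42.0 CPM in CL097 libraries, and most of this was Cd2 (190 and 29.5 CPM), which mouse B cells also express. Cd3d, Cd3e and Cd3g, the defining genes of T cells, reached at most 0.589 CPM, and of 5 tested markers Cd2 was called lower. Cd8a and Cd8b1 passed the filter on low values only through the CL097 libraries (1.74 and 0.911 CPM), so their calls are not read. NK cell markers summed to 7.54 to 9.57 and 9.58 to 15.4 CPM, with Gzmb called higher. Neutrophil markers summed to 26.2 to 64.4 and 14.9 to 45.1 CPM, with none of 7 called, and platelet markers to 5.50 to 6.78 and 6.18 to 6.57 CPM, with none of 4 called. Dendritic cell markers summed to 31.9 to 50.4 and 77.2 to 94.9 CPM, where Zbtb46 rose from 8.22 to 47.7 CPM and Xcr1 and Clec9a were too low to test. Flt3, Siglech, Ccr9 and Itgax were not called (log2FC 0.44, -0.003, -0.22 and -0.88), but Itgax was called lower with the block. Of 12 monocyte and macrophage markers, 1 was called lower, Ly6c2, and 5 with the replicate number as a block. Of 7 erythroid markers, 1 was called higher, Car1, and 5 with the block, while 4 of 7 neutrophil markers were called lower with it. The part of these cells in the levels of the 9 genes was not tested beyond the values per number given above.

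Genes with the most similar profile were found for the gene with the largest rise and the gene with the largest fall, by the root mean square distance of log2 values centred on each gene's mean over the 6 libraries. For Pou2f2, the nearest were Tet2, which encodes a DNA demethylation enzyme (distance 0.06, 67.4 to 175 CPM), 9430008C03Rik (0.08, 20.02 to 50.71 CPM) and the deubiquitinase gene Usp36 (0.09, 64.8 to 171 CPM). For Hhex, they were Cd101 (0.20, 0.726 to 0.0305 CPM), Zfp831 (0.27, 81.4 to 4.73 CPM) and Xkrx (0.30, 36.4 to 1.77 CPM). Hhex and Zfp831 were thus of similar CPM in both conditions, while Cd101 was at a low level throughout and near the lowest value of the files with CL097. Cd101 passed the filter on low values only through the unstimulated libraries, so its likeness to Hhex is not read.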

How the data were processed

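RNA-seq libraries of purified splenic B cells, 3 unstimulated and 3 with CL097, were grouped by their labels. Reads were aligned to mm10 with STAR (2.6.1a per the submitters' processing notes) and counted with featureCounts (Subread 2.0.1), and the notes also list Trim Galore 0.6.5, FastQC 0.11.7 and limma. Libraries were made with a stranded mRNA kit. The authors converted gene counts with voom, using quantile normalization, and the deposited values are log2 CPM. Neither the gene annotation nor the strand setting is given in the sources used here. Reads of near-identical or overlapping genes may be shared between them. Read depth is unknown, so no counting interval is given.

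Genes at or above 0.5 CPM (log2 of -1) in at least 3 libraries were kept (11844). The deposited log2 values were fitted per gene in limma 3.58.1 (R 4.3.3) with the condition as the only term, moderated variances with a trend and no pseudocount, and p-values are two-sided and Benjamini-Hochberg adjusted over all 11844 genes. SE and 95% confidence intervals are from this fit, which was tested on simulated data. Levels are means of CPM, 2 to the power of the deposited value, and folds are computed as 2 to the power of the log2FC. Coordinates are from GENCODE M21 (GRCm38), counted from 1. The 9 genes and all lists were chosen with earlier results of these data known. All 9 genes and all tested paralogues are named, and of each other list up to 4 called genes with the largest change in either direction, with some uncalled genes added after their values were seen. The labels name 3 mice but do not say that a library number marks a mouse, so p-values measure the spread between these libraries, which may be technical.

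Deviations from the group means correlated at 0.568, 0.326 and 0.458 between libraries of numbers 1, 2 and 3, against -0.485 to 0.209 between different numbers. The same-number values were over the limit of 0.1, but so were 0.172 and 0.209 between numbers 2 and 3. The limit therefore does not separate pairs from other combinations, and the numbers were taken as pairs without proof from the labels. All printed values are from the fit without pairs unless the block is named. The part that values identical within a number had in these correlations was not tested. Alternatives were the replicate number as a block, leaving out each library or number 1, other filters, log2(CPM + 1), median centring, cyclic loess, no variance trend and robust variances.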

Additional observations from a re-analysis of the deposited data

How the results depend on the processing

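All 9 genes kept their direction and their call, or lack of one, under each of the 15 alternatives. Log2FC ranges over them were -4.65 to -4.27 for Hhex, -2.44 to -2.31 for Mef2c, -2.35 to -2.23 for Pou2af1, 1.30 to 1.48 for Pou2f2 and 0.05 to 0.19 for Pax5 (limma adjusted p 0.127 to 0.639). Aff3 ranged from -0.32 to -0.23 (adjusted p 0.00521 to 0.06), its p exceeding 0.05 only without CL097 library 3. With the replicate number as a block, 1 of the 9 genes was called higher and 6 lower, as without it, and 3064 of all tested genes were called higher and 3057 lower. Leaving out 1 library gave 2656 to 2872 genes called higher and 2536 to 2917 called lower. The median of the genes PAX5 represses ran from -0.43 to 0.31 with 1 library left out, and that of the paralogues from -0.76 to -0.50. The cause was not tested. The unknown depth limits low genes such as Cd101, and quantile normalization leaves changes in total RNA unmeasured.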

Other observations

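Transcripts of the co-receptor genes Cd8a and Cd8b1 were at 0.281 ± 0.217 and 0.145 ± 0.0549 CPM in unstimulated libraries and at 1.74 ± 0.518 and 0.911 ± 0.221 CPM in CL097 libraries (SD, n = 3). Both were below the filter on low values in every unstimulated library, so they were tested only because of their CL097 values.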
